A study of Mus musculus with 20 samples.

Results

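The genes described here carry out the upkeep of mitochondria: making and copying their DNA, joining and dividing the organelles, removing damaged ones and importing proteins into them. The set held 43 genes chosen by symbol from a list. Of these, 35 had an intact line in the deposited count table, among 23993 genes with intact lines out of 35504 lines in all. The other 8 had lines displaced in the file and were not analysed here: Esrra, Polg2, Tfb1m, Tfb2m, Opa1, Fis1, Immt and Becn1. All 35 passed the filter on low counts. They comprised 3 of 7 listed genes of biogenesis and mitochondrial DNA, 11 of 14 of fusion, fission, cristae and inner membrane quality control, 7 of 8 of mitophagy and autophagy, and 14 of 14 of protein import.

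Liver RNA from 20 female mice was sequenced, 1 library per animal. The 4 groups had 5 mice each: oral combined contraceptives (OC) in the diet without a running wheel (OC.Sed), OC diet with voluntary wheel running (OC.VWR), vehicle diet with running (Con.VWR) and vehicle diet without running (Con.Sed). The hormones in the diet, their dose and duration, and the strain and age of the mice are not given in the sources used here. Replicate numbers follow accession order and only name a library.

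Mitochondria form a network that is joined by fusion GTPases and cut by a cytosolic GTPase recruited to the outer membrane. Damaged pieces are tagged by the kinase PINK1 or by receptors such as BNIP3 and are taken up by autophagosomes. Most mitochondrial proteins are made in the cytosol and enter through the TOM complex of the outer membrane and the TIM complexes of the inner membrane. The liver is rich in mitochondria, which hold its fatty acid oxidation and part of its urea cycle.

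Library totals, here and in every CPM value, were sums over the intact lines only. They ran from 10883936 to 16134618 counts. Counts on the lines left out are not part of them, so they do not give the full sequencing depth. Markers of hepatocytes, the main liver cell, were abundant, with Alb averaging 80020 CPM (a gene's counts relative to the TMM-adjusted library total) in OC.Sed, 72270 CPM in OC.VWR, 124700 CPM in Con.VWR and 136800 CPM in Con.Sed. The summed level of 6 measured of 8 listed hepatocyte markers ran from 92740 to 117500 CPM in OC.Sed against 153200 to 184800 CPM in Con.Sed, and from 80700 to 117500 CPM in OC.VWR against 139200 to 195900 CPM in Con.VWR. This sum is mostly Alb, and each of the 6 markers except Tat had a lower fitted level on OC in both activities. Apoa1 passed in sedentary mice (log2 difference -0.50, adjusted p = 0.0152) but not in running mice (-0.24, 0.246). Ttr passed in both (-0.39, adjusted p = 0.0398, and -0.42, 0.0337). Tat went the other way. Tat, a tyrosine-degrading enzyme, averaged 3000 CPM in OC.Sed against 1867 CPM in Con.Sed and 3587 CPM in OC.VWR against 2261 CPM in Con.VWR (log2 difference 0.68, adjusted p = 0.0228, and 0.67, adjusted p = 0.0296). The urea cycle genes Cps1 (-0.17 in sedentary and -0.53 in running mice) and Ass1 (-0.30 and -0.38) did not pass in the edgeR test in either activity. Averaged over activity Cps1 passed (-0.35, adjusted p = 0.0464). The sum of 6 measured of 8 stellate cell markers ran from 342.2 to 580.8 CPM in OC.Sed against 557.1 to 808.4 CPM in Con.Sed, and from 339.1 to 537.6 CPM in OC.VWR against 525.3 to 689.0 CPM in Con.VWR. Sums of 7 of 8 macrophage, 7 of 8 endothelial, 6 of 6 cholangiocyte and 5 of 9 lymphocyte and neutrophil markers overlapped between OC and vehicle at each activity. Single markers within them passed in both directions. Csf1r was higher on OC in sedentary mice (0.58, adjusted p = 0.0113), and S100a8 and S100a9 in running mice (1.79, adjusted p = 0.0321, and 1.78, 0.0105). Cd79a was lower in both activities (-1.38, adjusted p = 0.00639, and -1.10, 0.036), and Cd79b and Cldn7 in sedentary mice. No other marker of these lists passed in either activity. None of these measured markers was at 0 in a group. The part of cell makeup in the results below was not tested, and in bulk liver fewer cells of a type and less RNA per cell cannot be told apart. Con.Sed 2 and Con.Sed 5 had higher levels of short genes relative to long genes than the other 8 vehicle livers, as described with the import genes, and sedentary calls lost without them are named.

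Promoter windows from RefSeq on GRCm38.p6, covering 250 bases before to 50 bases after a start site, were found for 33 of the 35 genes, in 39 windows. They are shown for 5 genes that passed the test on the OC diet, because the genes differ in which short motifs the window holds. Capitals mark matches, on either strand, to the core of nuclear respiratory factor 1 (NRF1; GCGCA, any base, then GCGC), to CCGGAAG (the GABP core) or to CACGTG (an E-box). Each is written 5′ to 3′ on the strand of the gene.
Twnk, chr19:45006308-45006607, + strand: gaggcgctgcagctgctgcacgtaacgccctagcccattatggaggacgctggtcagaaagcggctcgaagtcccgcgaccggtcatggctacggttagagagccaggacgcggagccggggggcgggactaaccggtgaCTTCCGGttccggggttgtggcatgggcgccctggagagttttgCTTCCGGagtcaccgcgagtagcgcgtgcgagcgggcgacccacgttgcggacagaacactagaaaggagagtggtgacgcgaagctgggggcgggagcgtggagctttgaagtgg
Ulk1, chr5:110810032-110810331, - strand: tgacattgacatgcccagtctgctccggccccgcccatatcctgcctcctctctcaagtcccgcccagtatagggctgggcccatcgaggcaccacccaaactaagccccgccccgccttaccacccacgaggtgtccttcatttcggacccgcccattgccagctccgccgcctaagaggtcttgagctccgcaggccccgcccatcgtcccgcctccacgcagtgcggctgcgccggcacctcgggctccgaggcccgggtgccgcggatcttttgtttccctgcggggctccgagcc
Chchd3, chr6:33060211-33060510, - strand: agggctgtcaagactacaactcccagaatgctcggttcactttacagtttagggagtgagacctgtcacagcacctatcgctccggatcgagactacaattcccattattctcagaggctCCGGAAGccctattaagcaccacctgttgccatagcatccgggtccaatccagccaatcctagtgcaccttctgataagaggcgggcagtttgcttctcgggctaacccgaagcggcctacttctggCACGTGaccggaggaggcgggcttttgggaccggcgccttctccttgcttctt
Timm9, chr12:71136626-71136925, - strand: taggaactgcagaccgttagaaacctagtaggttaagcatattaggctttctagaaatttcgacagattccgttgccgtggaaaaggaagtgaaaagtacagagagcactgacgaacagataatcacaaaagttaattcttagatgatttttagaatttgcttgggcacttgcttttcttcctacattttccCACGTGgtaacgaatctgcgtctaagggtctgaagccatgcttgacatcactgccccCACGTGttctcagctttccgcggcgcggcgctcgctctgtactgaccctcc
Pink1, chr4:138326247-138326546, - strand: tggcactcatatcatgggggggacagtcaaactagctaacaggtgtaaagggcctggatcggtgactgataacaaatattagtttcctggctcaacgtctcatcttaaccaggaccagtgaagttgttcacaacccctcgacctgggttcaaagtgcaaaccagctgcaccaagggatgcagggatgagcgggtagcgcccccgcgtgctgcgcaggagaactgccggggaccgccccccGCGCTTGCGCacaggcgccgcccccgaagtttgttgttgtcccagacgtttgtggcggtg
The Twnk window held 2 GABP cores, and the other Twnk window, chr19:45005413-45005712, held none of the motifs. Chchd3 held a GABP core and an E-box, Timm9 held 2 E-boxes and Pink1 held an NRF1 core. The Ulk1 window held none of these letters. Over the 39 windows, the GABP core was present in 12 (30.8%), against 8.86% of all 32851 promoter windows. The NRF1 core was present in 8 (20.5%), against 4.6% of all windows, and the E-box in 7 (17.9%), against 7.15%. The extended half-site of oestrogen-related receptors, TCAAGGTCA, was in 1 window (2.56%, against 0.423% of all). A perfect oestrogen response element, GGTCA and TGACC with 3 bases between them, was in 0 of the 39 and in 0.07% of all. A match describes letters only and is not evidence of a bound site.

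Contraceptives changed a small and mixed part of the set. In sedentary mice 6 of 35 genes passed the test (edgeR quasi-likelihood test, Benjamini-Hochberg adjusted p under 0.05 over 10207 genes), which is 17.1% against 16.3% of all genes tested. Of these 2 were higher (Twnk, Ulk1) and 4 lower (Chchd3, Phb2, Timm44, Tomm7) on OC, against 9.11% and 7.2% of all genes. In running mice 7 of 35 passed (20%, against 13.2% of all genes), with Twnk, Ulk1 and Timm9 higher and Chchd3, Mfn2, Dnm1l and Pink1 lower, against 7.09% and 6.06% of all genes. Averaged over activity 8 of 35 passed (22.9%, against 22.9% of all genes), with 3 higher and 5 lower, against 11.9% and 11% of all genes. The share called was close to the background in sedentary mice and averaged over activity, and 3 genes (Twnk, Ulk1, Chchd3) passed in both activities. The median log2 fold change over the 35 genes was -0.10 in sedentary and 0.07 in running mice, against -0.01 and 0.01 over all genes. With library totals in place of TMM, which moved the median of all genes to 0.10 in sedentary and 0.12 in running mice, 5 of 7 calls in sedentary and 7 of 7 in running mice were higher on OC, against 2 of 6 and 3 of 7 with TMM.

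**Figure D1:**
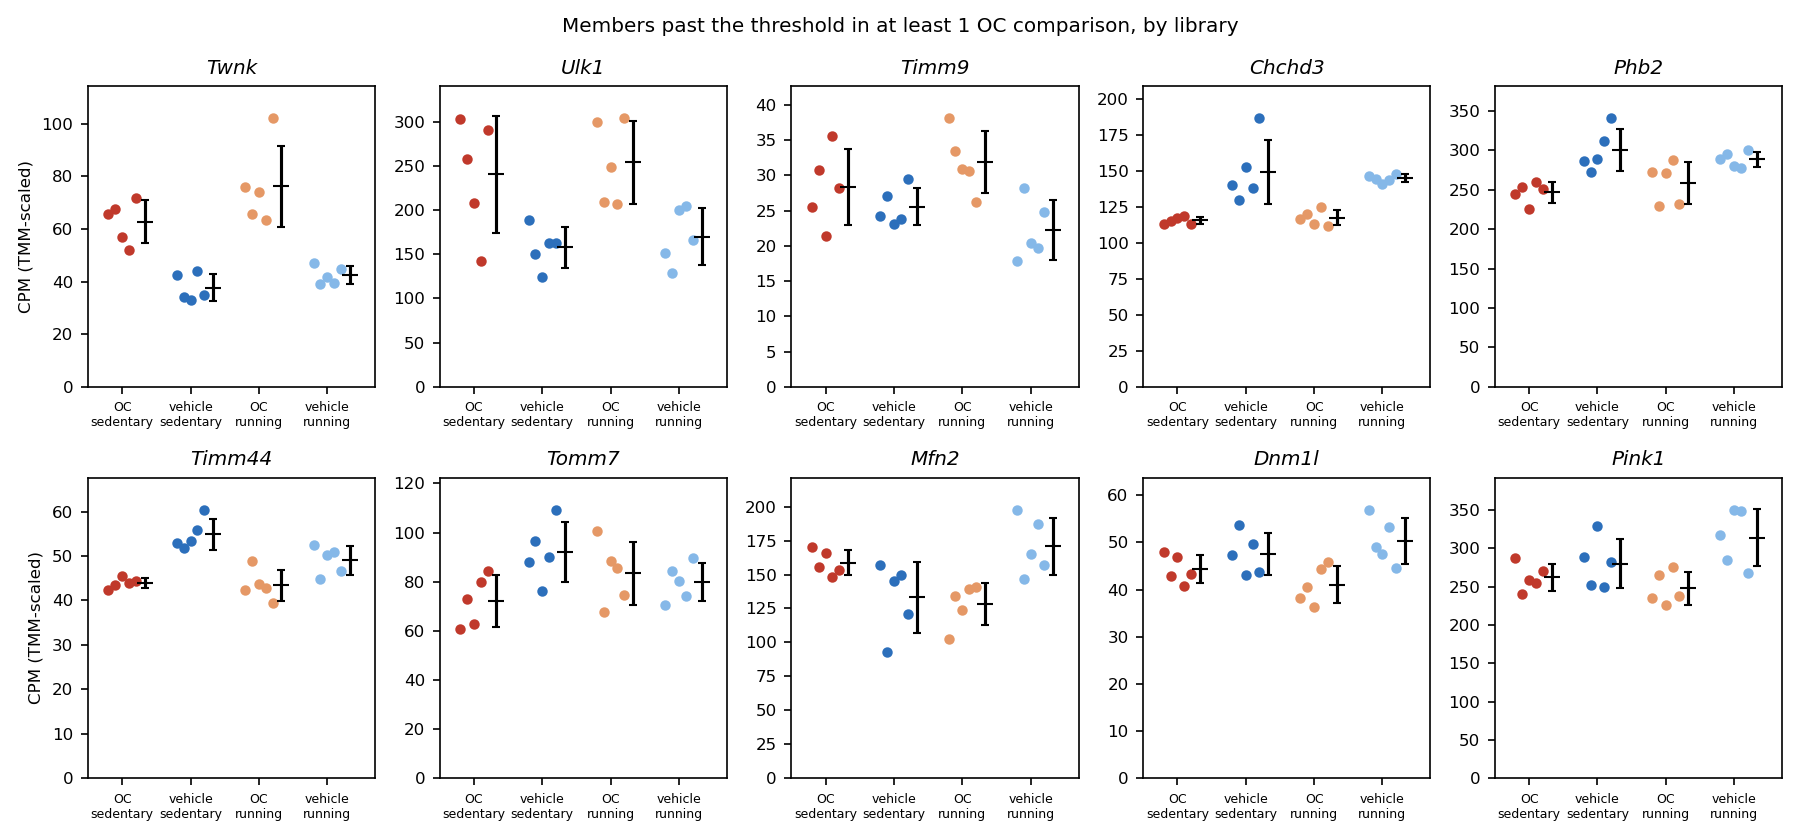
TMM-scaled CPM (vertical axis, from 0) of the 10 genes past the threshold in at least 1 OC comparison, in each of the 4 groups, with OC left of vehicle. Points are single libraries, and black bars are the mean ± SD of 5 mice. Twnk lies higher in all 10 OC livers and Chchd3 lower in all 10 than in any vehicle liver.

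**Figure D2:**
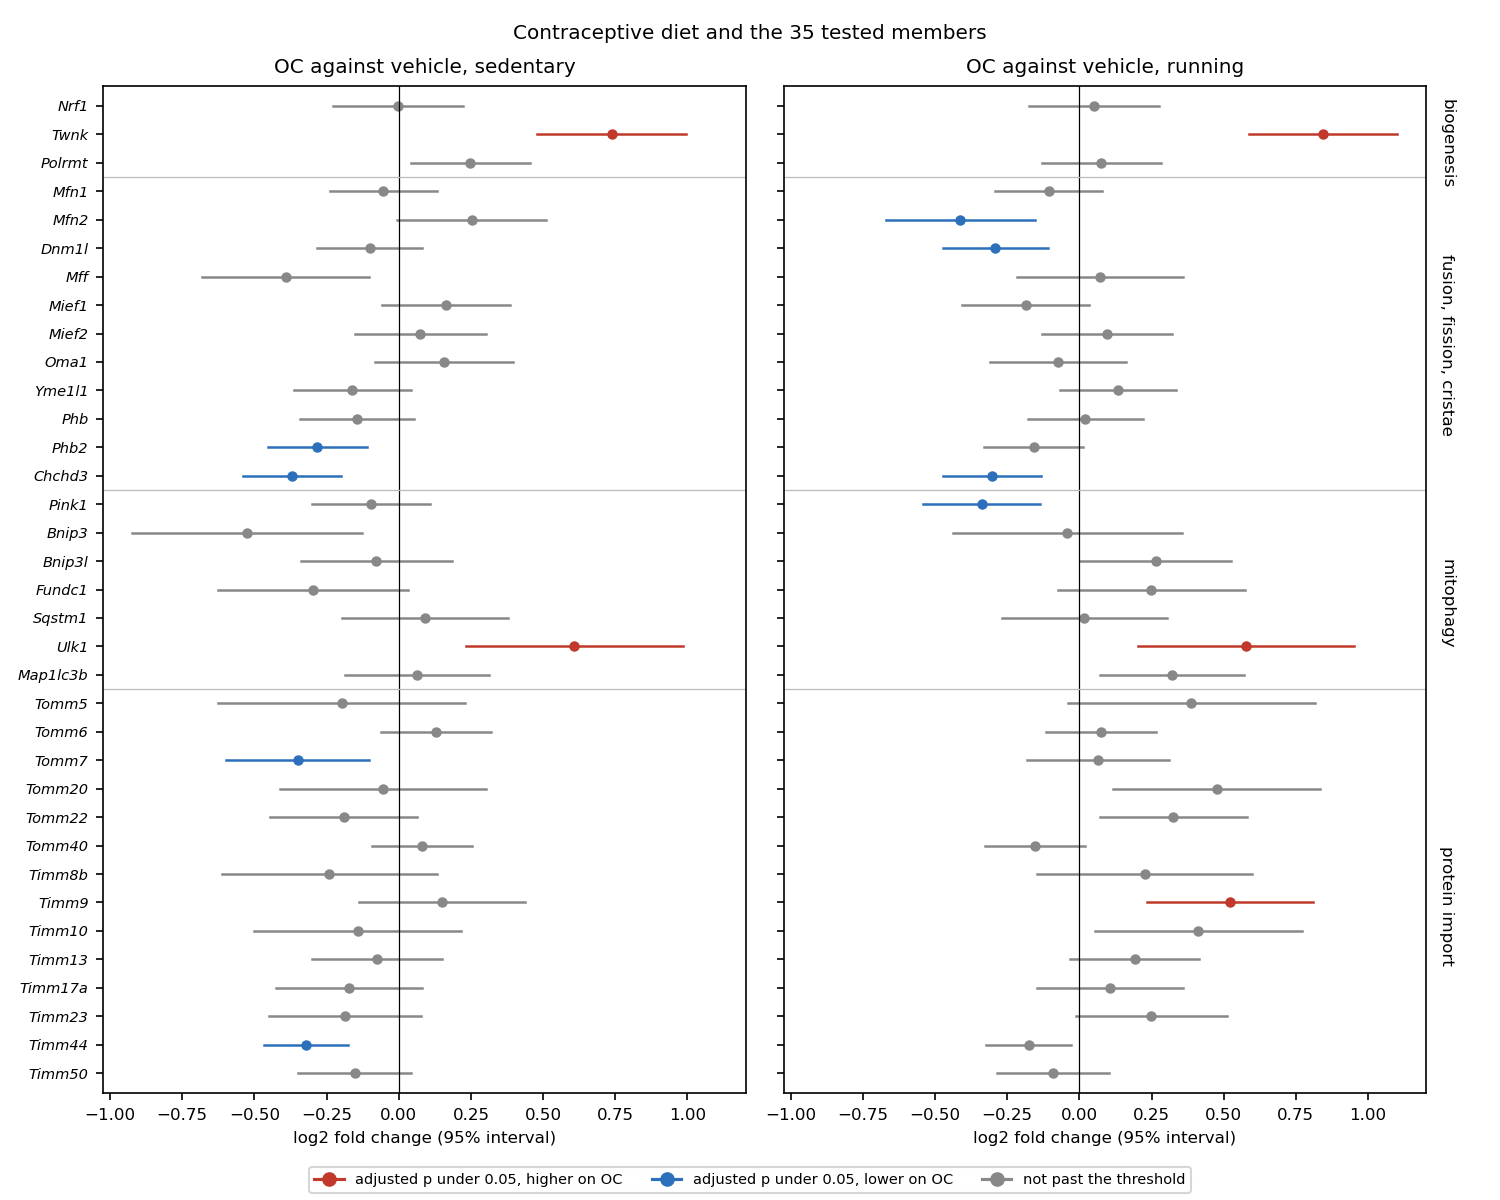
Log2 fold change of OC over vehicle (horizontal axis, 95% interval) for the 35 tested genes, in sedentary mice (left) and running mice (right), by function. Red marks genes higher and blue genes lower at adjusted p under 0.05, with 2 red and 4 blue in sedentary and 3 red and 4 blue in running mice.

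Twnk, the helicase Twinkle that unwinds mitochondrial DNA at the replication fork, was the gene with the largest change of the set. It lies on the + strand of chromosome 19 at 45005663 to 45012762 (GRCm38, the build of all positions given). Its level was 65.6, 67.5, 56.8, 51.9 and 71.8 CPM in OC.Sed livers, against 42.3, 34.0, 32.9, 44.0 and 34.8 CPM in Con.Sed livers. It was 76.0, 65.7, 74.0, 63.6 and 102 CPM in OC.VWR livers, against 47.1, 39.1, 41.9, 39.6 and 44.8 CPM in Con.VWR livers. Every OC liver was above every vehicle liver at both activities. The fitted difference was 0.74 ± 0.12 (SE; adjusted p = 0.000432) on the log2 scale in sedentary mice, 1.67-fold, and 0.84 ± 0.12 (SE; adjusted p = 9.0e-05) in running mice, 1.79-fold. In sedentary mice OC and vehicle livers did not overlap for 4 of 35 genes (11% of all genes tested), 1 of them higher (7.01% of all) and 3 lower (4.01%). In running mice they did not overlap for 4 of 35 genes (10.4% of all), 2 higher (5.44%) and 2 lower (4.95%). Over all 20 livers 2 genes did not overlap (2.54% of all), Twnk higher (1.69%) and Chchd3 lower (0.843%). The call was kept under each of 28 alternatives in both activities. Twnk shares 507 exonic bases with Mrpl43, a mitochondrial ribosomal protein gene on the opposite strand. Mrpl43 differed by 0.25 ± 0.09 (SE; adjusted p = 0.0551) in sedentary and by 0.30 ± 0.09 (adjusted p = 0.0256) in running mice on the log2 scale. The strand setting of the counting is not given, so reads of the shared stretch cannot be assigned to either gene.

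The other 2 measured genes of this group did not pass the edgeR test in either activity. Here and below, CPM means are given ± SD over 5 mice and log2 differences ± SE. Polrmt, the RNA polymerase of mitochondria, averaged 31.2 ± 2.84 CPM in OC.Sed and 26.2 ± 2.98 CPM in Con.Sed livers (SD, n = 5 each), a log2 difference of 0.25 ± 0.10 (SE; adjusted p = 0.0927). In running mice it averaged 30.7 ± 4.26 CPM on OC and 29.1 ± 2.19 CPM on vehicle (SD, n = 5 each; log2 difference 0.08, adjusted p = 0.657). It passed in sedentary mice with library totals (adjusted p = 0.0187) and without Con.Sed 4 (0.0427). Nrf1, a transcription factor for nuclear genes of mitochondrial proteins, differed by -0.003 in sedentary and 0.05 in running mice on the log2 scale. Among 16 tested of 29 further listed biogenesis genes, 0 passed in sedentary mice in the edgeR test, against 16.3% of all genes. At unadjusted p under 0.05 there was 1 of the 16, against 3138 of all 10207 genes. In running mice 3 of the 16 fell, against 6.06% of all genes. These included Ppara, the fatty acid-sensing nuclear receptor of liver, which averaged 141 ± 47.3 CPM in OC.VWR and 242 ± 7.94 CPM in Con.VWR livers (log2 difference -0.78 ± 0.19, adjusted p = 0.00884). Esrrg, an orphan receptor related to the oestrogen receptors, averaged 3.90 ± 1.45 and 9.89 ± 1.43 CPM in the same groups (-1.33 ± 0.35, adjusted p = 0.0165).

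Of the 11 genes of fusion, fission, cristae and inner membrane quality control, 2 fell on OC in sedentary mice (Chchd3, Phb2; 18.2%, against 7.2% of all genes lower and 16.3% called) and 3 in running mice (Chchd3, Mfn2, Dnm1l; 27.3%, against 6.06% lower and 13.2% called). Their median log2 difference was -0.10 in sedentary and -0.11 in running mice, against -0.01 and 0.01 over all genes. Averaged over activity 3 fell (Chchd3, Phb2, Dnm1l; 27.3%, against 11% of all genes lower and 22.9% called). Of the 11 genes 9 were below 0 and 2 above, while 50.1% of all genes were above 0. With library totals the averaged calls of Phb2 (-0.11, adjusted p = 0.151) and Dnm1l (-0.08, adjusted p = 0.419) were lost, and that of Dnm1l also without Con.VWR 4 (0.0506) or OC.VWR 3 (0.05).

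Chchd3, a subunit of the MICOS complex that shapes cristae (chromosome 6, 32790976 to 33060260, - strand), was lower in every OC liver than in every vehicle liver. It measured 113, 115, 118, 118 and 113 CPM in OC.Sed and 140.2, 129.6, 153, 138 and 186 CPM in Con.Sed livers. In running mice it measured 117, 120.2, 113, 125 and 112 CPM in OC.VWR and 147, 145, 141, 144 and 148 CPM in Con.VWR livers. The OC values spread over a narrow range in both activities, and Con.Sed 5 was the highest of all libraries. The log2 difference was -0.37 ± 0.08 (SE; adjusted p = 0.00435) in sedentary mice, 1.29-fold lower, and -0.30 ± 0.08 (SE; adjusted p = 0.0178) in running mice, 1.23-fold lower. The sedentary call held under all 28 alternatives. In running mice it was lost with library totals (log2 difference -0.19, adjusted p = 0.0758) and without OC.VWR 3 (-0.29, adjusted p = 0.0504).

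Phb2, which with Phb forms the prohibitin rings that hold the inner membrane (chromosome 6, 124712336 to 124716950, + strand), fell in sedentary mice. It measured 245, 253, 225, 260.1 and 251 CPM in OC.Sed and 287, 273, 289, 312 and 341 CPM in Con.Sed livers, with no overlap. With running, the level was 273, 229.8, 271, 287 and 232 CPM in OC.VWR and 289, 296, 280.0, 277 and 300.2 CPM in Con.VWR livers, and 4 of 5 OC livers were below the lowest vehicle liver. On the log2 scale the difference was -0.28 ± 0.08 (SE; adjusted p = 0.0242) in sedentary mice and -0.16 ± 0.08 (SE; adjusted p = 0.218) in running mice. The sedentary call did not hold without Con.Sed 5 (adjusted p = 0.0587), without OC.Sed 3 (0.0503), without Con.Sed 2 and 5 together (0.0544), with only the sedentary groups fitted (0.0508) or with library totals (0.141). Averaged over activity the difference was -0.22 ± 0.06 (SE; adjusted p = 0.00885), and it did not pass with library totals. Phb, its partner, did not pass the test and differed by -0.14 in sedentary and 0.02 in running mice (adjusted p = 0.318 and 0.911). Phb has near-identical transcripts elsewhere, such as Gm7666 (99.9% over 819 bases) and Fyb (100% over 339 bases), so its values are uncertain.

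Mfn2, the outer membrane GTPase that fuses mitochondria and tethers them to the endoplasmic reticulum (chromosome 4, 147873599 to 147904704, - strand), fell in running mice. It measured 103, 134, 124, 139 and 141 CPM in OC.VWR and 198, 146, 165, 187 and 157 CPM in Con.VWR livers, with every OC liver below every vehicle liver. In sedentary mice it measured 170.2, 156, 166, 148 and 153 CPM in OC.Sed and 157, 93.1, 145, 149.9 and 121 CPM in Con.Sed livers, and here the OC mean was higher and the groups overlapped. The lowest of the sedentary vehicle livers was Con.Sed 2. The fitted log2 difference was -0.41 ± 0.12 (SE; adjusted p = 0.0321) in running mice, 1.33-fold lower, and 0.25 ± 0.12 (SE; adjusted p = 0.172) in sedentary mice. The difference between these changes is the interaction, -0.67 ± 0.18 (SE; adjusted p = 0.201), at an unadjusted p of 0.00108, which did not pass over all genes. DESeq2 gave -0.66 for it with an adjusted p of 0.0175, the only alternative in which it passed. DESeq2 adjusted this contrast over 988 genes, of which it called 13.8%, so its adjusted p does not compare directly with the one over 10207 genes. Without OC.VWR 1, OC.VWR 3, Con.VWR 1, Con.VWR 3 or Con.VWR 4 the running call was lost (adjusted p 0.0559 to 0.102). With library totals it was lost too (-0.29, adjusted p = 0.0923), and the sedentary difference passed instead (0.37, adjusted p = 0.0293). Mfn1, the other mitofusin, did not pass the test and differed by -0.05 in sedentary and -0.11 in running mice.

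Dnm1l, the dynamin-related GTPase that cuts mitochondria (chromosome 16, 16312230 to 16358959, - strand), fell in running mice. It measured 38.3, 40.6, 36.3, 44.3 and 45.9 CPM in OC.VWR and 56.9, 49.0, 47.6, 53.3 and 44.5 CPM in Con.VWR livers, and 4 of 5 OC livers were below the lowest vehicle liver. In sedentary mice it measured 48.0, 42.9, 46.8, 40.9 and 43.2 CPM in OC.Sed and 47.3, 53.7, 43.2, 49.7 and 43.7 CPM in Con.Sed livers, with overlap. The log2 difference was -0.29 ± 0.09 (SE; adjusted p = 0.0314) in running mice and -0.10 ± 0.09 (SE; adjusted p = 0.462) in sedentary mice. The running call was lost without any 1 of Con.VWR 1, 3 and 4 and OC.VWR 1 and 3 (adjusted p 0.0506 to 0.0923), with library totals (0.271), with no filter on low counts (0.0513) and with only the running groups fitted (0.0582). The fission adaptors Mff, Mief1 and Mief2, which bring DNM1L to the outer membrane, did not pass in the edgeR test in either activity. Mff was at -0.39 ± 0.14 (SE; adjusted p = 0.0585) in sedentary mice and 0.07 in running mice, and Mief1 at 0.16 and -0.19. DESeq2 called Mff lower in sedentary mice (-0.40, adjusted p = 0.0434), and limma voom called Mief1 lower in running mice (-0.28, adjusted p = 0.0377). The inner membrane proteases Oma1 (0.16 in sedentary and -0.07 in running mice) and Yme1l1 (-0.16 and 0.13) also did not pass in edgeR. Both process the fusion protein OPA1. Dnm1l shares 243 exonic bases with the antisense gene Gm49521 and Phb2 shares 141 with the antisense gene Gm15884, so their reads could be mixed too. Yme1l1 has a similar transcript elsewhere, Gm14897 (96.1% identical over 207 bases).

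Among 21 tested of 32 further listed genes of dynamics and cristae, 1 rose and 2 fell in sedentary mice (14.3%, against 16.3% of all genes), and 2 rose and 3 fell in running mice (23.8%, against 13.2%). Samm50, the outer membrane beta-barrel insertase that binds MICOS, averaged 110.4 ± 10.5 CPM in OC.Sed and 145 ± 21.3 CPM in Con.Sed livers (-0.40 ± 0.12, adjusted p = 0.0286). It averaged 116 ± 8.59 CPM in OC.VWR and 154 ± 29.0 CPM in Con.VWR livers (-0.40 ± 0.12, adjusted p = 0.0301). Chchd6, another MICOS subunit, differed by -0.52 ± 0.16 (SE; adjusted p = 0.0333) in sedentary mice, and Mtfr1l, a regulator of fission, by 0.25 ± 0.08 (SE; adjusted p = 0.0398). In running mice Miga1 and Miga2, which promote fusion at the outer membrane, moved in opposite directions. Miga1 averaged 4.56 ± 0.47 CPM in OC.VWR and 2.68 ± 0.23 CPM in Con.VWR livers (0.77 ± 0.16, adjusted p = 0.00269). Miga2 averaged 52.5 ± 5.92 CPM in OC.VWR and 76.6 ± 6.45 CPM in Con.VWR livers (-0.54 ± 0.09, adjusted p = 0.00034). Clpp, the matrix protease, differed by 0.26 ± 0.08 (SE; adjusted p = 0.0416).

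Of the 7 mitophagy and autophagy genes, Ulk1 rose in both activities and Pink1 fell in running mice, which is 14.3% against 16.3% of all genes in sedentary and 28.6% against 13.2% in running mice. Ulk1, the kinase that starts autophagosome formation (chromosome 5, 110784488 to 110810097, - strand), measured 304, 258, 208, 143 and 291 CPM in OC.Sed and 189, 151, 124, 163 and 163 CPM in Con.Sed livers. In running mice it measured 300.2, 209.6, 249, 207 and 304 CPM in OC.VWR and 151, 129, 199.9, 205 and 166 CPM in Con.VWR livers. Every OC.VWR liver was above every Con.VWR liver, whereas OC.Sed 4 lay among the Con.Sed livers and the other 4 OC.Sed livers above them. On the log2 scale the difference was 0.61 ± 0.18 (SE; adjusted p = 0.026) in sedentary mice, 1.52-fold, and 0.58 ± 0.18 (SE; adjusted p = 0.0373) in running mice, 1.49-fold. Averaged over activity it was 0.59 ± 0.13 (SE; adjusted p = 0.00176) and held under all 27 alternatives. In each activity alone it was less stable. The sedentary call was lost without 1 of 4 libraries (OC.Sed 1, 2 or 5 or Con.Sed 3) and the running call without 1 of 6 libraries (OC.VWR 1, 3 or 5 or Con.VWR 1, 2 or 5), with adjusted p of 0.0557 to 0.105. Without Con.Sed 2 and 5 together the sedentary adjusted p was 0.0952, and with only the sedentary groups fitted it was 0.0549.

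Pink1, the kinase that marks mitochondria with a lost membrane potential (chromosome 4, 138313409 to 138326307, - strand), measured 236, 265, 226, 276 and 237 CPM in OC.VWR and 317, 285, 350.3, 348 and 268 CPM in Con.VWR livers. The groups overlapped by 1 OC liver, and 4 of 5 OC livers lay below the lowest vehicle liver. In sedentary mice it measured 287, 239.9, 258, 255 and 271 CPM in OC.Sed and 289, 252, 329, 249 and 282 CPM in Con.Sed livers. The fitted log2 difference was -0.34 ± 0.10 (SE; adjusted p = 0.0259) in running mice and -0.10 ± 0.10 (SE; adjusted p = 0.535) in sedentary mice. The running call was lost without Con.VWR 3, Con.VWR 4, OC.VWR 1 or OC.VWR 3 (adjusted p 0.0675 to 0.079) and with library totals (0.0667). Averaged over activity Pink1 also passed (-0.22). That call was lost in 6 of 27 alternatives, 5 of them with 1 library left out. The largest adjusted p was 0.201, with library totals.

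The mitophagy receptors and adaptors did not pass in the edgeR test. Bnip3, an outer membrane receptor, measured 260.0, 326, 309.9, 470.4 and 395 CPM in OC.Sed and 552, 394, 372, 544 and 674 CPM in Con.Sed livers. Its log2 difference was -0.53 ± 0.19 (SE; adjusted p = 0.0652) in sedentary and -0.04 in running mice. DESeq2 (adjusted p = 0.0387) and limma voom (0.042) called Bnip3 lower in sedentary mice. Sqstm1, the p62 adaptor that binds ubiquitin and LC3, differed by 0.09 and 0.02. Map1lc3b, the LC3 protein of the autophagosome membrane, differed by 0.06 and by 0.32 ± 0.12 (SE; adjusted p = 0.0809), and limma voom (adjusted p = 0.0371) and library totals (0.023) called it higher in running mice. Bnip3, Map1lc3b and Bnip3l have transcripts at least 95% identical over at least 200 bases elsewhere in the annotation, so the counting could have split their reads. Per kilobase of exon, Bnip3 (183 CPM per kb over all 20 livers), Sqstm1 (127) and Timm8b (124) were the highest of the 35 genes and Nrf1 (1.25) the lowest.

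Among 36 tested of 40 further listed mitophagy and autophagy genes, 6 rose and 2 fell in sedentary mice (22.2%, against 16.3% of all genes). In running mice 1 rose and 2 fell (8.33%, against 13.2%). Ulk2, the second ULK kinase, averaged 109 ± 6.21 CPM in OC.Sed and 64.4 ± 10.1 CPM in Con.Sed livers (0.75 ± 0.14, adjusted p = 0.000788). In running mice it averaged 88.2 ± 20.3 CPM on OC and 82.6 ± 8.77 CPM on vehicle (0.09 ± 0.13, adjusted p = 0.686). The interaction of OC and running for Ulk2 was -0.66 ± 0.19 (SE; adjusted p = 0.201). Usp30, a deubiquitinase that opposes mitophagy, differed by 0.40 ± 0.09 (SE; adjusted p = 0.00479) in sedentary mice. Atg13, a subunit of the ULK1 complex, rose in both activities (0.37 ± 0.09, adjusted p = 0.00974 in sedentary and 0.28 ± 0.09, adjusted p = 0.0431, in running mice). Nipsnap2 and Atg101 fell in sedentary mice (-0.52 ± 0.12, adjusted p = 0.00473 and -0.32 ± 0.09, adjusted p = 0.0164). Bcl2l13, a mitophagy receptor, and Nipsnap1 fell in running mice (-0.37 ± 0.11, adjusted p = 0.0368 and -0.32 ± 0.10, adjusted p = 0.0449).

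Protein import held the most genes. Of 14 genes, 2 fell in sedentary mice (Timm44, Tomm7) and 1 rose in running mice (Timm9), which is 14.3% against 16.3% of all genes and 7.14% against 13.2%. Timm44, which tethers the import motor to the inner membrane channel (chromosome 8, 4259731 to 4275913, - strand), measured 42.4, 43.4, 45.5, 43.9 and 44.5 CPM in OC.Sed and 52.9, 51.9, 53.4, 55.8 and 60.4 CPM in Con.Sed livers, with no overlap. With running, the level was 42.2, 48.9, 43.6, 42.9 and 39.3 CPM in OC.VWR and 52.6, 44.8, 50.2, 50.9 and 46.6 CPM in Con.VWR livers, and 4 of 5 OC livers were below the lowest vehicle liver. The log2 difference was -0.32 ± 0.07 (SE; adjusted p = 0.00426) in sedentary mice and -0.18 ± 0.07 (SE; adjusted p = 0.105) in running mice. In running mice Timm44 passed with limma voom (-0.21, adjusted p = 0.0225) and without OC.VWR 2 (-0.22, 0.035). The sedentary call held under all 28 alternatives, as did the call averaged over activity (-0.25 ± 0.05, adjusted p = 0.000987) under all 27.

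Tomm7, a small subunit that regulates assembly of the TOM complex (chromosome 5, 23838944 to 23844161, - strand), measured 60.6, 72.8, 62.9, 80.0 and 84.5 CPM in OC.Sed and 88.1, 96.4, 76.1, 89.9 and 109 CPM in Con.Sed livers. The groups overlapped and 3 of 5 OC livers were below the lowest vehicle liver. In running mice it measured 101, 67.6, 88.3, 85.6 and 74.8 CPM in OC.VWR and 70.5, 84.4, 80.2, 74.2 and 89.8 CPM in Con.VWR livers. On the log2 scale the difference was -0.35 ± 0.12 (SE; adjusted p = 0.0487) in sedentary and 0.06 ± 0.12 (SE; adjusted p = 0.762) in running mice. The sedentary call was lost in 19 of 28 alternatives, with adjusted p of up to 0.266, which was the value without Con.Sed 2 and 5 together.

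Timm9, a small chaperone of the intermembrane space that carries hydrophobic precursors (chromosome 12, 71123173 to 71136684, - strand), measured 38.1, 33.5, 30.9, 30.7 and 26.2 CPM in OC.VWR and 17.9, 28.2, 20.5, 19.6 and 24.9 CPM in Con.VWR livers. The groups overlapped, with 4 of 5 OC livers above the highest vehicle liver. In sedentary mice it measured 25.6, 30.8, 21.4, 35.6 and 28.2 CPM in OC.Sed and 24.3, 27.0, 23.2, 23.8 and 29.5 CPM in Con.Sed livers. The fitted log2 difference was 0.52 ± 0.14 (SE; adjusted p = 0.0165) in running mice, 1.44-fold, and 0.15 ± 0.14 (SE; adjusted p = 0.485) in sedentary mice. The running call was lost without Con.VWR 1 (adjusted p = 0.0539) or OC.VWR 1 (0.0554). Averaged over activity the difference was 0.34 ± 0.10 (SE; adjusted p = 0.0164) and held under all 27 alternatives.

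The 11 other import genes did not pass in the edgeR test in either activity. In running mice limma voom called Tomm20 (0.56, adjusted p = 0.018) and Tomm22 (0.37, adjusted p = 0.0222) higher, as did library totals (adjusted p = 0.0353 and 0.02). Library totals also called Tomm6 higher in sedentary mice (0.25, adjusted p = 0.0289). Tomm6 shares 859 of its 1131 exonic bases with Gm21981 on the same strand, so its reads could be mixed. Timm17a, Timm23, Tomm20 and Tomm22 have near-identical transcripts elsewhere, by the same bounds as Bnip3, and their values are uncertain. The 3 with the most counts were Timm23, the channel of the inner membrane complex (-0.19 in sedentary and 0.25 in running mice on the log2 scale), Tomm20, a receptor for targeting sequences (-0.05 and 0.48), and Timm13, a small intermembrane chaperone (-0.08 and 0.19). Among 27 tested of 31 further listed import genes, 2 fell and 0 rose in each activity in the edgeR test (7.41%, against 16.3% of all genes in sedentary and 13.2% in running mice). Mipep, which trims imported precursors, averaged 38.4 ± 3.42 CPM in OC.Sed and 49.5 ± 5.77 CPM in Con.Sed livers (-0.37 ± 0.10, adjusted p = 0.0147). It averaged 38.4 ± 3.76 CPM in OC.VWR and 53.5 ± 5.56 CPM in Con.VWR livers (-0.48 ± 0.10, adjusted p = 0.00236). Hspa9, the mitochondrial HSP70 of the import motor, averaged 476 ± 29.2 CPM in OC.Sed and 611 ± 60.3 CPM in Con.Sed livers (-0.36 ± 0.11, adjusted p = 0.0341), and 449.6 ± 64.5 CPM in OC.VWR and 617 ± 89.0 CPM in Con.VWR livers (-0.46 ± 0.11, adjusted p = 0.0103).

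Although few import genes passed, their values on OC leaned one way in each activity. In sedentary mice 11 of 14 log2 differences were below 0 (median -0.16), with 9 of 14 below 0 under library totals. In running mice 11 of 14 were above 0 (median 0.21), with 12 of 14 above 0 under library totals. Over all genes 48.2% were above 0 in sedentary and 51% in running mice. The sedentary median of the import genes was -0.05 with library totals, -0.07 with limma voom and -0.05 without Con.Sed 2 and 5 together. The running median was 0.32 with library totals and 0.13 without OC.VWR 1. With the short-gene covariate described next, the medians were 0.01 in sedentary mice, with 7 of 14 above 0, and 0.01 in running mice, with 8 of 14 above 0. The interaction was above 0 for 12 of 14 (51.4% of all genes), with a median of 0.39, against 0.01 over all genes. None of the 14 passed for it in the edgeR test or in limma voom. At unadjusted p under 0.05 there were 5 of the 14, against 1802 of all 10207 genes. DESeq2 gave an adjusted p for 0 of the 14 and so tested none of them here. The largest was Tomm5 (0.59 ± 0.29, adjusted p = 0.299), and the smallest p was for Tomm22 (0.52 ± 0.17, adjusted p = 0.201), the receptor that links the TOM subunits.

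Short genes moved with this lean. For each library, the median log2 deviation of short genes (exonic length at most 2633 bases) was set against that of long genes (at least 6681 bases). The bounds are the lower and upper quartiles of exonic length over the 10206 tested genes with a length. This difference ran from -0.23 in OC.Sed 3 to 0.28 in OC.VWR 1. The medians by group were 0.14 in OC.VWR and -0.02 in OC.Sed, against -0.06 in Con.VWR and -0.002 in Con.Sed. Of the 14 import genes 8 are short by this bound, against 1 of 11 fusion, fission and cristae genes and 2 of 7 mitophagy genes. These 8 are themselves among the short genes that enter the difference, so it is not independent of the import means. The mean log2 deviation of the import genes ran from -0.30 in OC.Sed 3 to 0.32 in OC.VWR 1. The 5 libraries with the highest short-gene difference (OC.VWR 1, 3 and 4 and Con.Sed 2 and 5) were also the 5 with the highest import mean. Of the 5 with the lowest difference, 3 were among the 5 with the lowest import mean. With this difference as a covariate in the same fit, added after the data were seen, the median interaction of the import genes was 0.03 and 8 of 14 were above 0. What the covariate itself reflects was not tested.

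**Figure D3:**
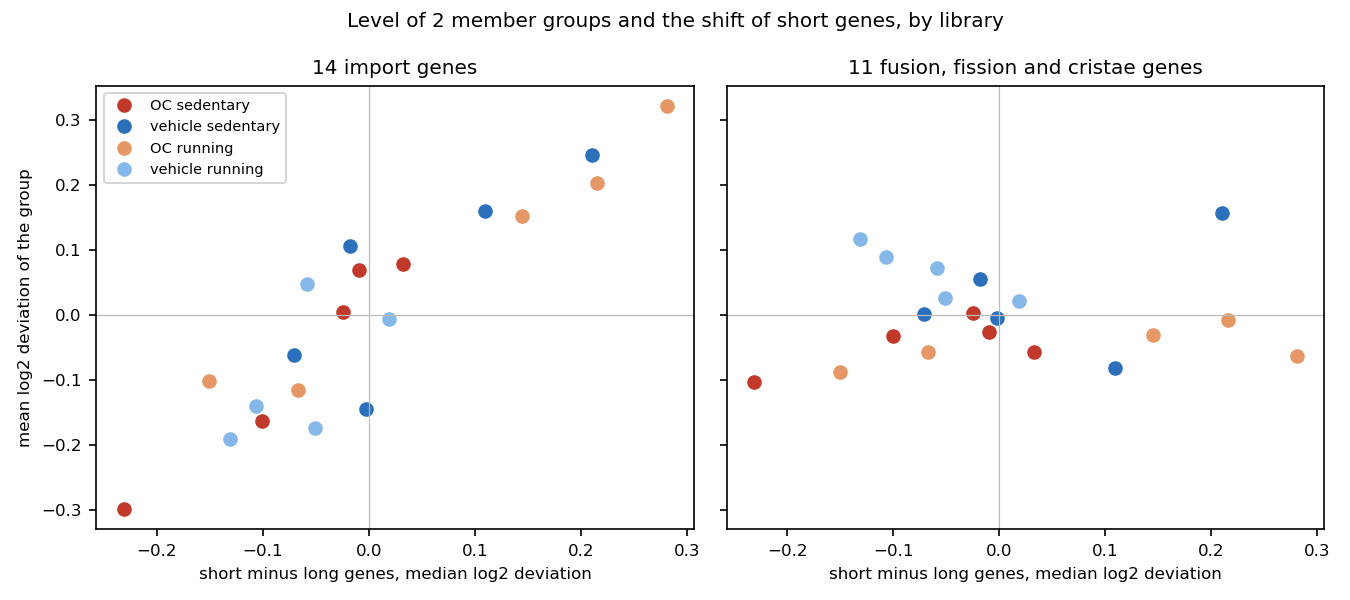
For each of the 20 libraries, the short-minus-long gene difference (horizontal axis, log2) against the mean log2 deviation of 14 import genes (left) and 11 fusion, fission and cristae genes (right). Colours mark the 4 groups, and import means run along the short-gene difference from OC.Sed 3 at the lower left to OC.VWR 1 at the upper right.

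**Figure D4:**
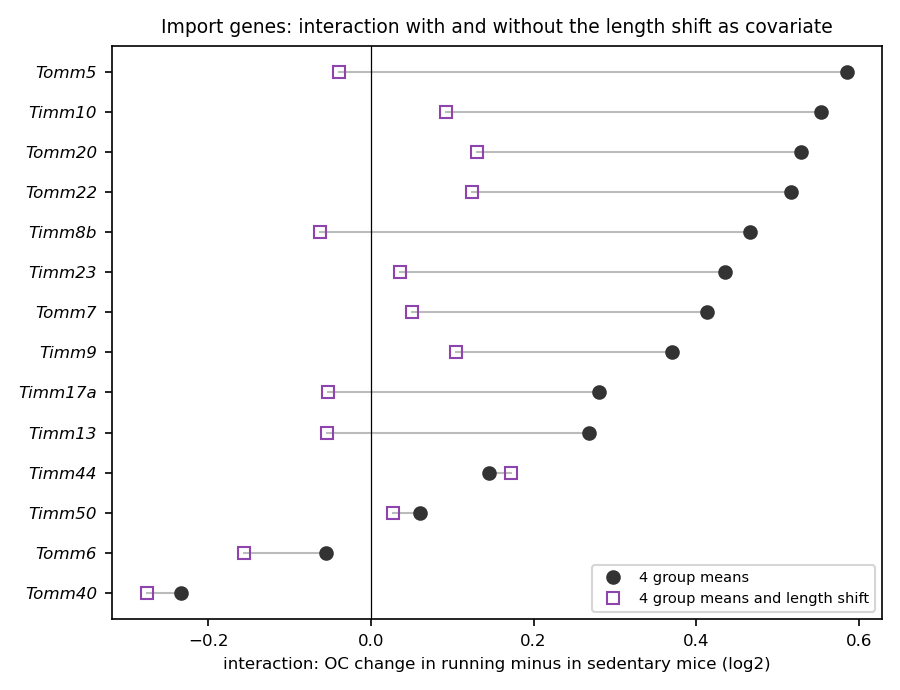
Interaction of OC and running on the log2 scale (horizontal axis) for each import gene, fitted with 4 group means (filled circles) or with the short-gene difference added (open squares). The median is 0.39 with group means and 0.03 with the covariate.

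With the same covariate 5 of 35 genes passed in sedentary mice, where 14% of all genes passed, against 16.3% without it. They were Twnk (0.71 on the log2 scale), Ulk1 (0.63), Chchd3 (-0.34), Timm44 (-0.33) and Phb2 (-0.21), while Tomm7 did not pass (-0.20, adjusted p = 0.0739). In running mice 3 of 35 passed, against 8.11% of all genes with the covariate and 13.2% without it. These were Twnk (0.89), Chchd3 (-0.34) and Phb2 (-0.26). Mfn2 (-0.26, adjusted p = 0.182), Dnm1l (-0.22, adjusted p = 0.139), Pink1 (-0.29, adjusted p = 0.0922), Timm9 (0.37, adjusted p = 0.0848) and Ulk1 (0.55, adjusted p = 0.104) no longer passed in running mice. Averaged over activity 10 of 35 passed with the covariate (27.5% of all genes), against 8 without it (22.9%). The averaged calls of Dnm1l, Pink1, Timm9 and Ulk1 were kept. Tomm7 (-0.17, adjusted p = 0.012) and Polrmt (0.18, adjusted p = 0.0315) were added. The covariate itself differed by group (medians 0.14 in OC.VWR and -0.06 in Con.VWR), so it can take up part of an OC difference. Whether calls were lost in this way was not tested.

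Running changed none of the 35 genes past the threshold on either diet. On the vehicle diet 0 of 35 passed (0% of all 10207 genes; edgeR) and 0 in DESeq2 and limma voom. Over all genes DESeq2 called 37 of 11674 there (0.317%) and limma voom called 0. In edgeR 5 of the 35 were at unadjusted p under 0.05, against 1414 of all 10207 genes. On the OC diet 0 of 35 passed (0% of all genes) and 0 in DESeq2 and limma voom, with 4 at unadjusted p under 0.05 (694 of all genes). DESeq2 called 2 of 14158 genes on this diet. Averaged over diet 0 of 35 passed (0% of all genes) and 0 in DESeq2 and limma voom, with 2 at unadjusted p under 0.05 (496 of all genes). The smallest adjusted p was 0.264 for Mfn2 on the vehicle diet, where Con.VWR livers averaged 171 ± 21.3 CPM and Con.Sed livers 133 ± 26.2 CPM (SD, n = 5 each; log2 difference 0.36 ± 0.12, SE). On the OC diet Mfn2 averaged 128 ± 15.6 CPM in OC.VWR and 159 ± 9.25 CPM in OC.Sed livers (log2 difference -0.31 ± 0.12, adjusted p = 0.683), with every running liver below every sedentary one. Timm50, a receptor of the inner membrane complex, was higher in every OC.VWR liver than in every OC.Sed liver. Such separation was seen for 2 of 35 genes on the OC diet (1.06% of all genes), 1 higher and 1 lower in running mice (0.304% and 0.754% of all). On the vehicle diet it was seen for 0 of 35 (2.01% of all genes, 1.09% higher and 0.921% lower). Timm50 measured 33.7, 32.3, 32.5, 32.9 and 32.9 CPM in OC.VWR and 31.6, 31.3, 30.3, 31.2 and 30.8 CPM in OC.Sed livers, a log2 difference of 0.08 ± 0.09 (SE; adjusted p = 0.821). Twnk, with 0.28 ± 0.12 on the OC diet and 0.18 ± 0.12 on the vehicle diet, did not pass either.

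For the interaction of OC and running, 0 of 35 genes passed in the edgeR test (0% of all genes). At unadjusted p under 0.05 there were 10 of the 35, against 1802 of all 10207 genes. DESeq2 called 1 (Mfn2, among 7 of the 35 that it gave an adjusted p) and limma voom called 0. The smallest adjusted p of the 35 genes in edgeR was 0.201. A gene that passed in only 1 activity is therefore not shown to respond differently in the other, and this holds for Phb2, Timm44 and Tomm7 in sedentary mice and for Mfn2, Timm9, Dnm1l and Pink1 in running mice.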

How the data were processed

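The authors deposited 1 table of counts per gene for 20 mouse livers. The submitters' processing notes name the mm10 build, STAR, R 4.05 and limma. Which program counted the reads, with what annotation and strand setting, is not given in the sources used here. As deposited by the authors, values were treated as estimated counts per gene, without normalization, since 2 genes were not whole. The planned design had assumed plain counts, and rounding changed no value used. In all 11511 of 35504 lines (32.42%) were left out. On 806 of them (2.27% of all lines) the first value was 1 and the others were low, so whether that 1 was a count could not be decided. On the rest, text, an added 1 or a value that was not whole stood where a count should be.

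Counts were fitted with edgeR 4.0.16 in R 4.3.3 (quasi-likelihood, 1 mean per group, filterByExpr, TMM). This kept 10207 genes with a common biological coefficient of variation of 0.178. Benjamini-Hochberg adjustment ran over these genes in each of 7 contrasts, with a threshold of 0.05. Every adjusted p is from this test unless another tool is named, and differences are on the log2 scale. DESeq2 1.42.0 and limma 3.58.1 (voom), other scalings, no filter and leaving out each library were run as alternatives. Steps were tested on simulated data.

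The gene set and all lists were chosen with earlier results of these data known, so no list gives independent support. Each gene past the threshold is named with its values. Of the others, the 3 with the most counts in each group are named, and so are the further genes that the text discusses, which were chosen after their values were seen. From each further list, the 2 called genes with the smallest adjusted p in each direction are named. Totals over the intact lines were 10883936 to 16134618 counts, and groups of 5 mice set the precision. The 95% intervals are for a difference between group means and rest on the spread between mice.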

Additional observations from a re-analysis of the deposited data

Results flagged for a closer look

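In groups of 5, a library was picked out where its gap to the nearest of the others exceeded 0.71 of the whole range. This happened in 5 of 140 groups, and chance alone gives about 1 in 20. Polrmt was at 38.08 CPM in OC.VWR 2, with the other 4 libraries at 27.52 to 29.84 CPM. Oma1 was at 13.61 CPM in the same library, with the others at 17.59 to 18.87 CPM. Mff was at 54.81 CPM in Con.VWR 2, against 37.11 to 41.09 CPM in the other 4. Mief1 was at 32.52 CPM in Con.VWR 5, against 37.43 to 38.78 CPM. Bnip3l was at 172.4 CPM in Con.Sed 5, against 111.0 to 127.9 CPM in the other 4 sedentary vehicle livers. In the edgeR test with TMM none of these 5 genes passed in a comparison, but some alternatives called Polrmt, Mff and Mief1, and Polrmt passed averaged over activity with the short-gene covariate (adjusted p = 0.0315). Library totals called Bnip3l higher on OC in running mice (adjusted p = 0.045).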

How the results depend on the processing

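No paired analysis was possible because the labels give no replicate numbers that the groups share. The number of genes called in sedentary mice (6) was 3 when only the 2 groups compared were fitted and 3 without Con.Sed 2 and 5 together, an alternative chosen after seeing the data. Over all genes these fits called 11.4% and 10.2%, against 16.3%. The number in running mice (7) was 12 with limma voom and 3 with the short-gene difference as covariate, also chosen after seeing the data. All genes moved the same way, with 21.8% and 8.11% called, against 13.2%. For the interaction (0), DESeq2 called 1 of the 7 genes it gave an adjusted p. Leaving out 1 library gave 4 to 7 calls in sedentary mice, 2 to 9 in running mice, 6 to 9 averaged over activity, and 0 to 0 for running and the interaction. The running count was 2 without OC.VWR 1 or OC.VWR 3, 3 without Con.VWR 1, and 4 without Con.VWR 3 or Con.VWR 4. Over all genes, 817 of 10273 were called without OC.VWR 1 and 835 of 10274 without OC.VWR 3, against 1343 of 10207. Without Con.VWR 1, 3 and 4, all genes gave 979, 922 and 936 calls. The running count was 9 without OC.VWR 2, where all genes gave 1679. The sedentary count was 4 without Con.Sed 5 or any 1 of OC.Sed 1, 2 and 3. All genes gave 1242 calls without Con.Sed 5 and 998, 1210 and 1382 without OC.Sed 1, 2 and 3, against 1665. The sedentary count was 7 without Con.Sed 3, Con.VWR 1 or OC.Sed 4, where all genes gave 1367, 1638 and 1609. Averaged over activity the count was 6 without Con.VWR 4 or OC.VWR 3 (2156 and 2151 of all genes) and 9 without Con.Sed 4 (2278), against 2338. With library totals the split for the average over activity was 7 higher and 2 lower, against 3 and 5 with TMM. No called gene changed direction under any alternative run. The causes of these moves were not tested. Limits: 8 listed genes are not analysed here, 15 of the 35 share exons with another gene, 9 have a similar transcript elsewhere, and groups of 5 mice set the precision.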
